A study of Homo sapiens with 6 samples.

Results

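Megakaryocyte and platelet genes were measured in K562, an established human line from a patient with chronic myeloid leukaemia, labelled here as erythroblastic leukemia. The set held 9 genes, ITGA2B, ITGB3, TUBB1, F2R, FLI1, CD9, PF4, VWF and GP9. Its members were all the probe sets that the platform annotation of the array (HG U133 PLUS 2.0, Affymetrix) assigns to these genes, 28 of the 54675 probe sets on each array. A probe set is a group of short oligonucleotides that reads the transcripts of a gene. Parental cells, sensitive to the antifolate methotrexate (MTX), were compared with cells resistant to MTX at the concentration that the labels write as 10e-5 M. Read literally, this form is 10 times the concentration in the methods of the study. Each group had 3 arrays of total RNA. According to the methods of the study, resistant cells were obtained by stepwise increases of MTX and grown without glycine, hypoxanthine and thymidine and with dialyzed serum, whereas parental cells were kept in Ham's F12 with whole serum, so that effects of the medium and of resistance cannot be told apart. Both groups came from the same line and carry the BCR-ABL1 fusion for which it is known. Whether the resistant cells were a clone or a pool, and whether the replicates were separate cultures, is not given in the sources used here, so the p-values measure the spread between these samples.

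Megakaryocytes are the bone marrow cells that shed platelets, and they share a progenitor with red cells. They are recognised by the integrin alpha IIb beta 3 (ITGA2B and ITGB3), the platelet receptor for fibrinogen, by the glycoprotein Ib-IX-V receptor for von Willebrand factor (GP9 is a subunit and VWF the ligand), by the thrombin receptor F2R, by the platelet-specific beta tubulin TUBB1, by the chemokine PF4 stored in alpha granules and by the ETS factor FLI1, which drives many of these genes together with GATA1. CD9 is a tetraspanin abundant on platelets but made by many other cells. K562 cells keep erythroid and, in part, megakaryocytic features.

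The promoters of 4 of the 9 genes (ITGA2B, TUBB1, GP9 and CD9, the last with several starts) were found in the RefSeq table of build GRCh38.p14. The 250 bases before the start are given for ITGA2B, which carries the largest difference between the groups, for TUBB1, and for GP9, which stayed near background, so that the results can be set beside the sequence. They run 5′ to 3′ on the strand of the gene and lie at chr17:44389650-44389899 (ITGA2B, minus strand), chr20:59019179-59019428 (TUBB1, plus strand) and chr3:129060529-129060778 (GP9, plus strand). Capitals mark the words searched, on both strands. For GATA factors the word was GATAA or GATAG with A or T before it. For ETS factors it was GGAAG, which reads CTTCC on the opposite strand.
ITGA2B: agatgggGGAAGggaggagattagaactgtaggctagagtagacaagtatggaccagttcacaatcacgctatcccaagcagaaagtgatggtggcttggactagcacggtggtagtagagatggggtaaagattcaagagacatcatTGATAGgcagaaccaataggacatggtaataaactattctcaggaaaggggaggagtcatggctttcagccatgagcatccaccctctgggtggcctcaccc
TUBB1: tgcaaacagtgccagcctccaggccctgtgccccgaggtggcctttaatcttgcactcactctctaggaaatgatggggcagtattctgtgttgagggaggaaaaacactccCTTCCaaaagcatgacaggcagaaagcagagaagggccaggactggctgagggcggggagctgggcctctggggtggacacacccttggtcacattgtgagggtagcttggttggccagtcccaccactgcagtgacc
GP9: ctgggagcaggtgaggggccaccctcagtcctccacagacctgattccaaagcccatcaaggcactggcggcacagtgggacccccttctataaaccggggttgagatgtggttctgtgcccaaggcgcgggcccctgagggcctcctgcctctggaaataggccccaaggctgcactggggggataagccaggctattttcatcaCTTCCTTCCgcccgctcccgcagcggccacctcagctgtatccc
The ITGA2B window held 1 GATA word, TGATAG, at positions -102 to -97 from the start, and 1 ETS word at -243 to -239. The TUBB1 window held no GATA word and 1 ETS word, CTTCC, at -138 to -134. The GP9 window held no GATA word and 2 overlapping ETS words, at -44 to -40 and at -40 to -36. Of the 35116 promoters in the table, 22.3% hold a GATA word and 65.1% the ETS word in these 250 bases, so the matches describe the sequence and no more.

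All levels below are multiples of the median signal of the array, whose range was 12.7 to 14.3 among parental arrays and 10.2 to 12.5 among resistant arrays. Signals below that median were taken as close to background, which leaves folds against them uncertain. Tests were limma fits over the 26692 probe sets that averaged at least 1 array median, and calls required 2-fold or more between the group means with an adjusted p below 0.05. Parental 1 and resistant 3 stood apart from the other arrays of their groups. Over all probe sets but the controls, parental 2 and 3 had a Spearman correlation of 0.882, while parental 1 reached 0.856 with parental 2 and 0.849 with parental 3. Resistant 1 and 2 had 0.869, while resistant 3 reached 0.846 and 0.85 with them, and it had the lowest array median and the lowest median log2 level over the 9 genes (-0.95, against -0.34 to 0.55 in the other arrays). Erythroid markers were plainly present, with 7 of the 7 measured above the array median in all 6 arrays. Of 16 megakaryocyte and platelet markers, 14 were measured, 5 exceeded the median in all 6 arrays, and VWF, GP9, GP5 and PPBP exceeded it in no array. The label of the gene set was therefore borne out in part, since several defining platelet genes were not above background in either group.

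ITGA2B, the alpha IIb subunit, had the largest difference in the set, and its RNA was near background in resistant cells. By probe set 206493_at parental 1 to 3 stood at 3.95, 23.1 and 10.4 array medians, and resistant 1 to 3 at 0.26, 1.78 and 0.873. By 206494_s_at the parental values were 2.22, 16.8 and 7.94, and the resistant values 0.22, 0.096 and 0.127. By 216956_s_at they were 0.559, 9.57 and 6.41 against 0.472, 0.144 and 0.206. In each of these 3 probe sets the groups did not overlap, and parental 1 was the lowest of the parental arrays. The fall was called for 206494_s_at, with a log2 difference of -5.58 (SE 0.74, n = 3, limma adjusted p = 0.0186). The other 2 differed by -3.73 (SE 0.874, limma adjusted p = 0.0916) and -3.75 (SE 1.09, limma adjusted p = 0.143) and were not called. Since the resistant signal of 206494_s_at lay under the array median in all 3 arrays, its 47.9-fold difference depends on background. Set against the array median itself, the geometric mean of its parental values was 6.66. The fourth probe set, 216966_at, was under the median in all 6 arrays, at 0.072 to 0.706, and was not tested. In RNA from bulk cells, fewer cells that make ITGA2B and less ITGA2B RNA per cell cannot be told apart.

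The size of the ITGA2B difference depended on single arrays. Parental 1 lay below the mean log2 level of parental 2 and 3 by 1.98, 2.37 and 3.81 in the 3 probe sets, in the order given above. These gaps exceeded those of 94.6%, 96.3% and 98.9% of the tested probe sets. Without parental 1 the log2 differences were -4.39, -6.37 and -5.02, and 216956_s_at was called as well (limma adjusted p = 0.0104). Without parental 2, the array with the highest ITGA2B signal, they were smaller in size, at -3.12, -4.92 and -2.97. For 206493_at the difference was -2.98 without resistant 1 and -4.37 without resistant 2. The call of 206494_s_at was lost without parental 3 (limma adjusted p = 0.0625) or without resistant 1, 2 or 3 (up to 0.0868). This probe set entered the test through its parental arrays alone, and with no level filter its adjusted p was 0.0762.

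**Figure D1:**
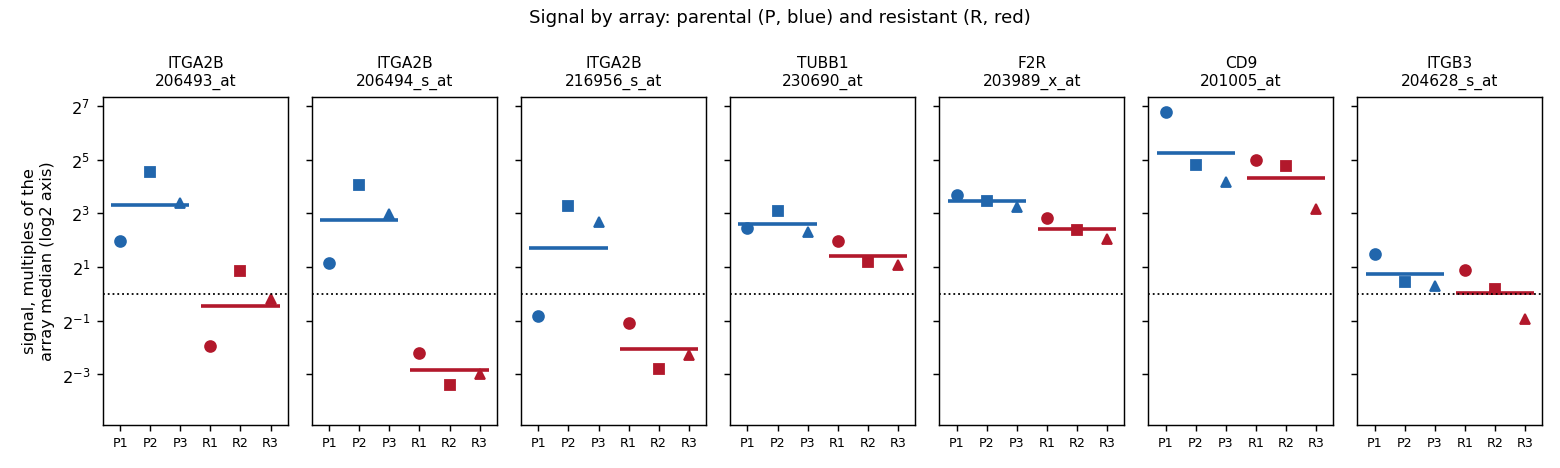
Signal by array on a log2 axis, where 1 is the array median, for 3 probe sets of ITGA2B and the probe sets of highest mean log2 level of TUBB1, F2R, CD9 and ITGB3. Points are arrays (P1 to P3 parental, R1 to R3 resistant), horizontal lines are means of the log2 values, and the dotted line is the array median. The ITGA2B values of parental 2 and 3 lie between 6.41 and 23.1, and P1 is the lowest parental array for ITGA2B and the highest for CD9.

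ITGB3, the beta 3 subunit that pairs with ITGA2B on platelets, was barely above background. Its probe set 204628_s_at read 2.79, 1.37 and 1.21 in parental and 1.85, 1.14 and 0.529 in resistant cells. The groups overlapped, with a log2 difference of -0.69 (SE 0.535, limma adjusted p = 0.531). Probe set 204627_s_at had parental values of 7.60, 1.06 and 0.063, then 0.0569, 0.68 and 0.461 for resistant 1 to 3, a difference of -1.61 with an SE of 1.80 (limma adjusted p = 0.671). A single array, parental 1, thus stood far above the other 5. The 5 remaining probe sets of ITGB3 averaged 0.194 to 0.761 array medians and were not tested, and 5 of their 30 values exceeded the median. No ITGB3 probe set was called in any alternative that was run.

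TUBB1, the beta tubulin of the platelet marginal band, was present in every array. Probe set 230690_at gave 5.50, 8.53 and 4.94 in parental 1 to 3 and 3.88, 2.30 and 2.09 in resistant 1 to 3. The groups did not overlap, and the log2 difference was -1.21 (SE 0.342, limma adjusted p = 0.136), so it was not called. Its means were 6.32 ± 1.93 and 2.75 ± 0.979 (SD, n = 3). The other probe set, 208601_s_at, was lower in signal and closer between groups, with parental values of 2.35, 2.13 and 1.27 beside resistant values of 1.53, 1.31 and 1.36 (log2 difference -0.41, SE 0.289, limma adjusted p = 0.497). In this case parental 3 was below all 3 resistant arrays.

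F2R encodes the main thrombin receptor of human platelets, which is also made by endothelial cells and fibroblasts. By probe set 203989_x_at the parental arrays read 12.9, 10.8 and 9.31 and the resistant arrays 7.08, 5.26 and 4.09, with no overlap. The log2 difference was -1.03 (SE 0.279, limma adjusted p = 0.123) and did not pass. The suffix of this probe set marks a class that can match other transcripts. The second probe set of the gene, 1569642_at, did not show this pattern. It read 4.03, 0.939 and 3.02 in parental and 3.50, 3.35 and 2.83 in resistant cells (log2 difference 0.51, SE 0.539, limma adjusted p = 0.651), and without parental 2 its difference was -0.12. The probe sets of F2R therefore differed in sign.

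F2R lies on chromosome 5, in gene order some genes before BHMT, a betaine-homocysteine methyltransferase. BHMT itself was called higher in resistant cells, at 2.28 to 5.33 array medians against 0.283 to 0.42 in parental cells (limma adjusted p = 0.0153). Of the 8 tested genes between F2R and BHMT, 0 were called by limma in either direction, and their median log2 difference was 0.19. The next tested gene on the other side of F2R, IQGAP2, a scaffold of the actin cytoskeleton, stood at 20.1 to 31.3 in parental and 40.4 to 54.5 in resistant arrays (log2 difference 0.87, limma adjusted p = 0.146). F2RL2, a related receptor, was under the median in all 6 arrays, at 0.0244 to 0.724. These neighbours were chosen after their values were seen.

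CD9 was the member with the highest signal. Its probe set 201005_at gave 110.4, 28.1 and 17.8 in parental 1 to 3 and 31.6, 27.4 and 8.87 in resistant 1 to 3. The groups overlapped, and the log2 difference was -0.95 (SE 0.787, limma adjusted p = 0.56). Parental 1 was above the mean log2 level of parental 2 and 3 by 2.30, a wider gap than in 96.1% of tested probe sets. Without parental 1 and resistant 3 together the difference was 0.40. The probe set 233322_at read 1.00, 0.962 and 1.85 against 1.72, 1.38 and 2.27 (log2 difference 0.53, SE 0.344, limma adjusted p = 0.454), and 233317_at stayed under 0.228. By 201005_at, CD9 thus deviated in parental 1 in the direction opposite to ITGA2B. By 233322_at and 233317_at, parental 1 was below the mean log2 level of parental 2 and 3 (-0.42 and -1.14), as for ITGA2B.

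The remaining members were not above background. FLI1, the ETS factor, had 6 probe sets averaging 0.125 to 0.733 array medians, and 4 of their 36 values exceeded the median, the highest at 1.35. VWF, the adhesive protein of alpha granules and endothelium, was under the median in all 12 values of its 2 probe sets, at 0.0732 to 0.951. GP9 was under it in all 6 arrays, with parental values of 0.245, 0.718 and 0.331 and resistant values of 0.528, 0.376 and 0.157. PF4 read 0.217, 0.305 and 0.26 in parental and 0.919, 0.344 and 1.24 in resistant cells. The PF4 groups did not overlap, but 5 of the 6 values lay under the median, and in the fit with no level filter the log2 difference of 1.50 (SE 0.542) had a limma adjusted p = 0.41. None of these 4 genes passed the level filter, so they have no test in the fit used here.

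**Figure D2:**
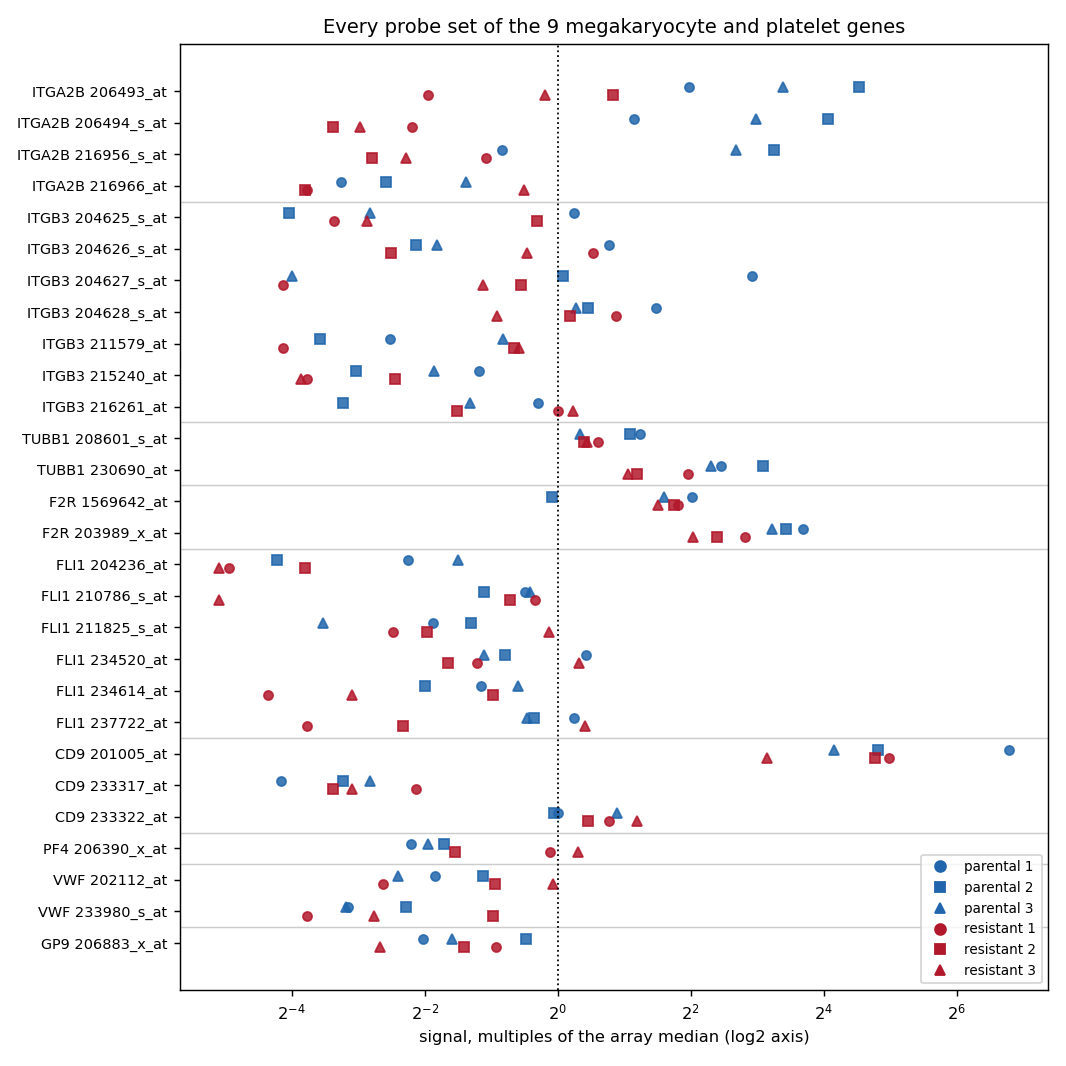
Signal of all 28 probe sets of the 9 genes by array on a log2 axis, where 1 is the array median, with parental arrays in blue and resistant arrays in red. The values of FLI1, PF4, VWF and GP9 lie mostly left of the dotted line at the array median, and CD9 201005_at, at 8.87 to 110.4, is the brightest probe set.

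Across the set, 4 of the 28 probe sets exceeded the array median in all 6 arrays, 13 in some and 11 in none, whereas 36.9% of all probe sets on the array did so in all 6. Of the 11 probe sets tested, belonging to 5 genes, 1 was called, a fall of ITGA2B, where 2.33% of all tested probe sets were called in either direction. The parental arrays lay above the resistant arrays without overlap in 5 of the 11, namely 3 of ITGA2B and 1 each of TUBB1 and F2R, and this pattern was seen in 12.3% of all tested probe sets. The 3 of ITGA2B averaged 0.972, 0.148 and 0.274 array medians in resistant cells (206493_at, 206494_s_at and 216956_s_at). They thus passed the level filter through their parental arrays, so neither count speaks for the set. An exact permutation test of 3 against 3 arrays cannot go below p = 0.1. The probe sets of a gene share their target and are not replicates. By the probe set of highest mean log2 level of each gene, and with no level filter, 7 of the 9 genes had a log2 difference below 0, and the median was -0.69, against 0.02 over 19777 genes. Of all tested probe sets 48.0% had a difference below 0. FLI1 and GP9, which were below 0, and PF4 and VWF, which were above it, were near background, so their signs say little. With parental 1 and resistant 3 left out, the median of the 9 genes was -0.13. Without resistant 1 it was -1.11, without resistant 3 -0.37, and without parental 1 -0.32.

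**Figure D3:**
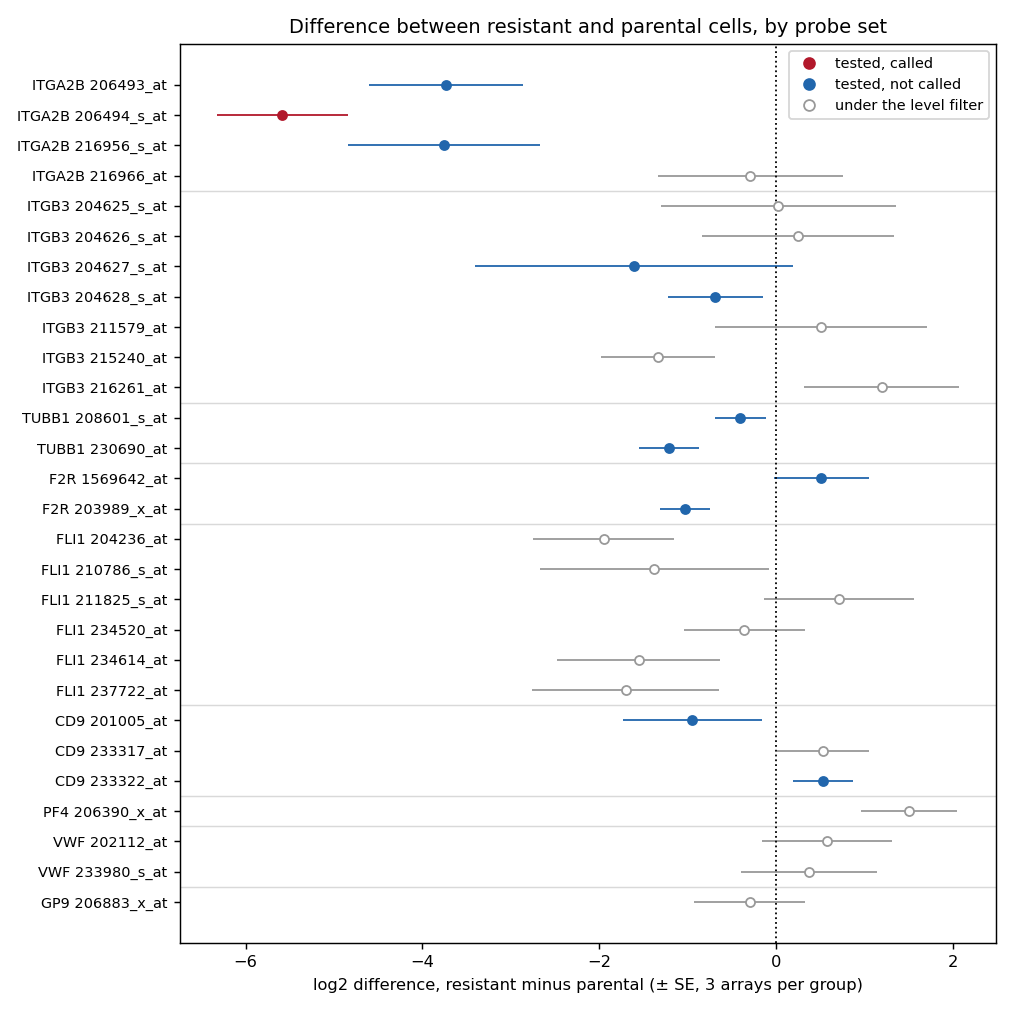
Log2 difference, resistant over parental, with its SE for each of the 28 probe sets (3 arrays a group). Filled points passed the level filter (red if called), and open points come from the fit without it. The 3 leftmost points belong to ITGA2B, from -5.58 to -3.73, and the other probe sets spread over both sides of 0.

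Other genes of the lineage were read from 8 lists, each gene by its tested probe set of highest mean log2 level. Of 128 genes listed 121 were measured, and 94 were tested. Resistant cells had 4 of the 94 called lower and 0 higher, a share of 4.26%, where 2.77% of all 11810 tested genes were called. An unadjusted p under 0.05 by limma was found for 25 of the 94. The share of all tested genes was 20.0%, against which the counts for single lists below are to be read. TSPAN33 and ESAM, which are 2 of the 4 and among the 25, passed the level filter through their parental arrays alone, so neither count speaks for the lists. The median log2 difference of the lists was -0.30, against 0.02 over all tested genes. The arrays did not overlap, with parental higher, in 20 of the 94 genes and, with resistant higher, in 9, where 14.2% and 16.1% of all tested genes did so. Among the 20 were TSPAN33 and ESAM, and also SRGN and SLC35D3, named after their values were seen. All of these are also among the 25. They passed the level filter through their parental arrays alone, so the count of 20 does not speak for the lists either.

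The 4 called genes were a platelet receptor, a tetraspanin, an enzyme and an adhesion molecule. PTGS1 (cyclooxygenase 1), which makes the precursor of thromboxane in platelets, fell from 9.22, 12.3 and 11.6 array medians in parental 1 to 3 to 2.28, 1.40 and 2.41 in resistant 1 to 3 (log2 difference -2.47, SE 0.287, limma adjusted p = 0.0113). Of its 4 tested probe sets 3 were called. PEAR1, a receptor that signals on contact between platelets, fell from 7.15, 7.05 and 8.08 to 2.88, 2.47 and 1.77 (log2 difference -1.67, SE 0.251, limma adjusted p = 0.0266). TSPAN33, a tetraspanin of erythroid and other blood cells, fell from 3.65, 4.91 and 3.85 to 0.463, 0.176 and 0.206 (log2 difference -4.00, SE 0.399, limma adjusted p = 0.00647). ESAM, an adhesion molecule of endothelium and platelets, fell from 2.81, 1.77 and 1.77 to 0.0732, 0.096 and 0.157 (log2 difference -4.32, SE 0.357, limma adjusted p = 0.00351). The resistant values of TSPAN33 and ESAM lay under the array median, where the size of a fold depends on background. The PEAR1 call was lost when parental 2 or 3 or any resistant array was left out (limma adjusted p up to 0.107), and PTGS1 without parental 2 (0.0572). With no level filter PEAR1 (0.138) and PTGS1 (0.0731) were not called, nor with the replicate block (0.0998 and 0.0604). TSPAN33 kept its call without each of the 6 arrays. ESAM kept it without each resistant array, fell under the level filter without any parental array, and was not called with an intensity trend and robust prior (0.0679).

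Among integrins and their activators, 0 of 13 tested genes were called by limma, 4 of them having an unadjusted p under 0.05 (20.0% of all tested genes did), and the median log2 difference was -0.40. The brightest were the small GTPase RAP1B (log2 difference -0.40), the integrin beta 1 subunit ITGB1 (-0.02) and RAP1A (-0.42). ITGB1, the partner of the collagen and fibronectin receptors, read 127.4, 134 and 118.9 in parental and 137.8, 124.8 and 112.3 in resistant cells, with overlap. ITGAV, the other alpha subunit that pairs with beta 3, read 16.6, 16.6 and 15.4 against 28.1, 19.7 and 28.7 (log2 difference 0.63, SE 0.233, limma adjusted p = 0.216) and was named after its values were seen. So the alpha subunits that pair with beta 3 had differences of opposite sign.

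For the GPIb-IX-V complex and the collagen receptors, 1 of 8 tested genes was called, PEAR1, and 3 had an unadjusted p under 0.05 by limma (20.0% of all tested genes did). All 8 had a log2 difference below 0, with a median of -0.59, where 5735 of all 11810 tested genes were below 0. Of the listed genes under the level filter, CLEC1B (0.43) and CD36 (0.12) were above 0 and GP5 (-0.15) below it in the fit with no level filter. The other bright members were the kinase SYK (-0.66), the phospholipase PLCG2 (-0.07) and the adaptor LCP2, which read 9.85, 5.34 and 3.15 against 1.25, 1.07 and 1.30 (log2 difference -2.19, limma adjusted p = 0.0577). GP1BA, the ligand-binding subunit, read 2.03, 3.20 and 2.82 against 1.41, 1.79 and 1.31 (log2 difference -0.82, limma adjusted p = 0.17), and was named after its values were seen. GP5 was under the array median in all arrays, like GP9.

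In the list of thrombin and other agonist receptors, 0 of 6 tested genes were called by limma and 0 had an unadjusted p under 0.05 (median log2 difference -0.30). The brightest were the G protein subunits GNA13 (0.18) and GNAQ (0.34) and the thromboxane receptor TBXA2R (-0.01). The ADP receptors P2RY1 and P2RY12 and the thrombin receptors F2RL2 and F2RL3 did not pass the level filter.

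Alpha granule genes gave 0 calls by limma among 10 tested, 3 having an unadjusted p under 0.05, and a median of -0.41. TGFB1 had a log2 difference of -0.51 and VPS33B, which is needed to form the granules, of -0.22. SPARC (osteonectin), a matrix protein carried in the granules, read 41.1, 35.5 and 29.4 in parental and 15, 11.4 and 5.73 in resistant cells (log2 difference -1.82, SE 0.387, limma adjusted p = 0.0744). SRGN (serglycin), the proteoglycan that holds PF4 in granules, read 0.727, 53.5 and 33.6 against 0.317, 0.016 and 0.127 (log2 difference -6.98, SE 1.83, limma adjusted p = 0.116). As for ITGA2B, parental 1 was far below parental 2 and 3, and SRGN was named after its values were seen. The platelet chemokine PPBP was under the median in all 6 arrays, at 0.028 to 0.634, as VWF and GP9 were.

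Of the dense granule, lysosomal and tetraspanin genes 1 of 14 was called, TSPAN33 (median log2 difference -0.35). An unadjusted p under 0.05 by limma was found for 4 of the 14 (20.0% of all tested genes). These were TSPAN33 and SLC35D3, which were lower in resistant cells, and SLC18A2 and HPS4, which were higher. TSPAN33 and SLC35D3 passed the level filter through their parental arrays alone, so this count does not speak for the list. CD63, a tetraspanin of lysosomes and dense granules, read 255.6, 199.5 and 167 against 158.6, 146.2 and 111.9, without overlap (log2 difference -0.57, limma adjusted p = 0.304). RAB27A, a GTPase of granule docking, had -0.33 and LAMP1, a lysosomal membrane protein, -0.01. Without overlap, parental was higher in 3 of the 14 genes and resistant in 2 (14.2% and 16.1% of all tested genes). TSPAN33 and SLC35D3 are again among the former. The latter were SLC18A2, at 0.231, 1.55 and 2.07 against 7.51, 5.58 and 3.82 (log2 difference 2.59, limma adjusted p = 0.171), and HPS4 (0.93, limma adjusted p = 0.112). Both were named after their values were seen.

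The tubulins showed no shared direction. Of 15 tested tubulin, actin and myosin genes 0 were called by limma, 3 had an unadjusted p under 0.05 (20.0% of all tested genes did), and the median was -0.03. The brightest of the list, the beta tubulins TUBB, TUBB4B and TUBB3, had log2 differences of 0.26, 0.09 and -0.22. The platelet isotype TUBB1 had -1.21 by 230690_at and -0.41, with overlap, by 208601_s_at. TUBB2B read 3.17, 6.64 and 4.35 against 16.6, 13.98 and 10.02 (log2 difference 1.55, limma adjusted p = 0.083) and was named after its values were seen. Beta tubulin probe sets of this class can read more than 1 of these closely similar genes.

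The transcription factors of the lineage were mostly well above background, in contrast to FLI1. Of 16 tested 0 were called by limma, 3 had an unadjusted p under 0.05, and the median log2 difference was 0.20. MYB, which holds progenitors in an immature state, read 53.2, 50.7 and 51.9 in parental and 117.3, 95.95 and 123.2 in resistant cells (log2 difference 1.10, SE 0.206, limma adjusted p = 0.0527). LMO2, a bridging protein of the GATA1 and TAL1 complex, had a difference of 0.27 and NFE2, which is needed for platelet release, of 0.68. GATA1 read 41.8, 60.7 and 54.9 against 42.0, 26.5 and 22.5, with overlap (log2 difference -0.82, limma adjusted p = 0.221), and was named after its values were seen. ERG, the ETS factor closest to FLI1, did not pass the level filter.

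In the list of megakaryocyte enzymes and other platelet proteins 2 of 12 were called, PTGS1 and ESAM, and the median was -0.71. An unadjusted p under 0.05 by limma was found for 5 of the 12 (20.0% of all tested genes). The brightest others were the transporter ABCC4 (log2 difference 0.37), the scramblase ANO6 (0.05) and the kinase PRKCQ (0.04). ALOX12, the 12-lipoxygenase of platelets, read 0.755, 16.2 and 8.10 against 1.55, 1.06 and 1.00 (log2 difference -1.97, SE 1.07, limma adjusted p = 0.378), and was named after its values were seen. As for SRGN and ITGA2B, its lowest parental value was in parental 1.

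**Figure D4:**
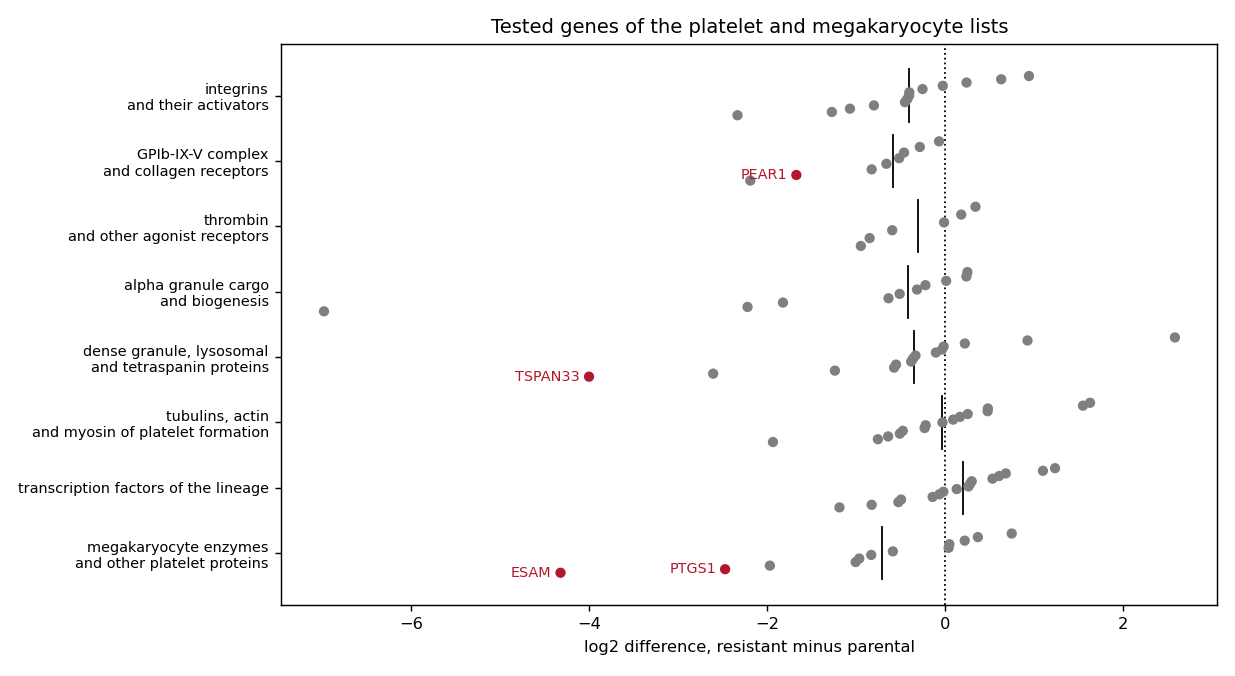
Log2 difference of resistant minus parental cells for the tested genes of 8 lists of platelet and megakaryocyte genes, 1 point per gene, with a vertical mark at the median of each list. Called genes are red and named (PEAR1, TSPAN33, PTGS1 and ESAM), all on the side of lower levels in resistant cells.

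Some members are made by other cell types as well, so markers of those were read beside them. The summed level of 9 epithelial markers was 643, 339 and 271 for parental 1 to 3 and 308, 249.5 and 222 for resistant 1 to 3, and 8 of the 9 were above the mean log2 level of parental 2 and 3 in parental 1. KRT18, KRT8 and KRT19 were the brightest of these, and CLDN4 was under the median in all arrays. CD9 by 201005_at and ITGB3 by 204627_s_at and 204628_s_at, which were also highest in parental 1, moved with them. The other CD9 probe sets did not, and ITGA2B was lowest of the parental arrays there. The part of this in the CD9 and ITGB3 values was not tested, beyond the CD9 differences of -0.18 without parental 1 and 0.40 without parental 1 and resistant 3. Endothelial markers summed to 6.86 to 8.09 in parental and 3.54 to 5.75 in resistant cells over 9 genes, and CDH5, KDR, TIE1 and EMCN were under the median in all arrays, as VWF was. The brightest endothelial markers were PECAM1, ESAM and ROBO4, of which ESAM is also a platelet gene of the lists above. Fibroblast markers summed to 11.52 to 14.01 and 8.04 to 10.3, with LUM and PDGFRB under the median throughout. Granulocyte and monocyte markers summed to 47.1 to 67.6 and 12.7 to 25.0, with MPO and CD14 under it throughout, and lymphoid markers to 112.4, 36.6 and 37.98 in parental and 10.4, 11.9 and 14.6 in resistant cells, with MS4A1, CD2 and IL7R under it throughout. Single genes carried these sums. LYZ supplied 42.1 of 47.1 in parental 1 for the granulocyte and monocyte list. For the lymphoid list CD3D read 50.3, 31.9 and 35.2 in parental 1 to 3 beside 0.919, 2.14 and 0.0784 in the resistant arrays, while PTPRC read 60.2, 0.374 and 0.402 beside 6.50, 7.62 and 9.60. Their part in the differences of ITGA2B, TUBB1 and F2R was not tested.

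**Figure D5:**
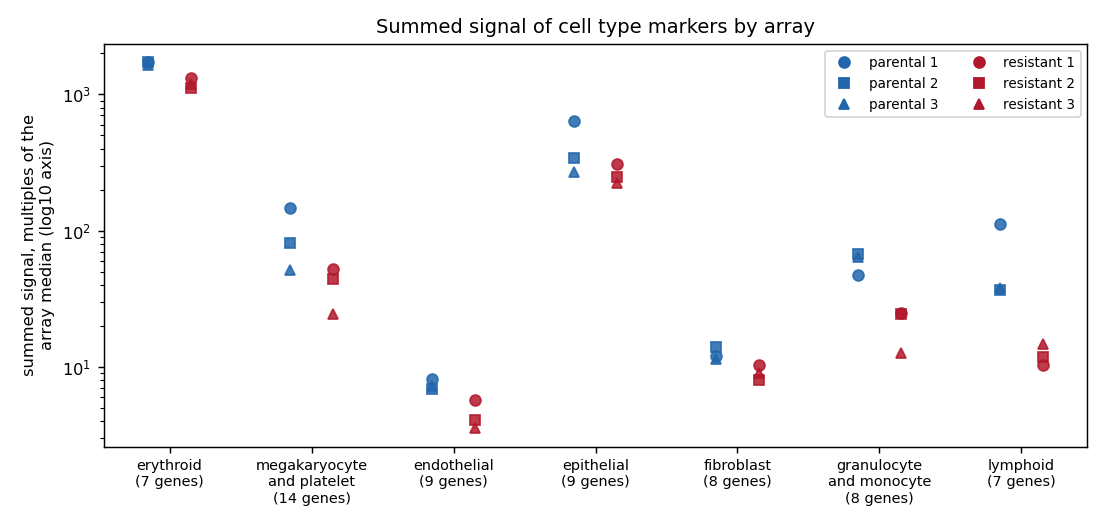
Summed signal of the measured markers of 7 cell types by array (log10 axis, array medians). Erythroid markers lead in every array, at 1108 to 1720, and parental 1 is highest for the epithelial (643) and lymphoid (112.4) markers and for the megakaryocyte and platelet markers, where CD9 supplied 110.4 of 146 in parental 1.

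The tested gene most like each member across the 6 arrays was found among 11809 others, by the root mean square difference of log2 levels after each gene was centred on its own mean. For ITGA2B it was RBM47, an RNA-binding protein, at 0.54, which read 1.81, 4.71 and 4.63 in parental and 0.163, 0.656 and 0.225 in resistant cells. For TUBB1 it was RBM48 at 0.128, for F2R the dehydrogenase gene DHRS11 at 0.0535, for CD9 the homeobox gene PBX4 at 0.204, and for ITGB3 the protein disulphide isomerase P4HB at 0.129. The nearest profile to ITGA2B was thus further from it than the nearest profiles of the other 4 members were from theirs. The distance was not scaled by the spread of each gene. A gene that varies more between arrays on the log2 scale, as ITGA2B did, therefore tends to lie further from others. With 6 arrays in 2 groups, many genes share a profile, and the likeness is only a description.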

How the data were processed

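K562 parental and MTX-resistant cells were profiled on 6 arrays, 3 per group. According to the labels, the authors computed the intensity values with MAS5, and the values were deposited as linear signals per probe set that had not been divided by the array median. No detection call per array was used, so a low signal cannot be told from absence. The methods describe dividing each array by its 50th percentile, which was done here before a floor of 0.01 array medians and log2 were applied. Control probe sets (62) were left out. Differences were fitted with limma 3.58.1 in R 4.3.3 (lmFit, eBayes, Benjamini-Hochberg) on the 26692 probe sets averaging at least 1 array median. The fit was also run on simulated data with independent noise. Changes were planted there only in probe sets of at most median spread, so that run does not speak for more variable ones. Groups came from the sample labels. A gene with several probe sets was represented in the lists by that with the highest mean log2 level. All members are named, and in each list every called gene and the 3 brightest others. The members and the lists were chosen with earlier results of these data known. Alternatives covered scaling, level filter, pseudocount, variance prior, a t-test with unequal variances, probe set class, a replicate block and left-out arrays. The study names an unpaired t-test for its statistics and, in the heat map legend, a t-test for its gene lists. It does not say whether variances were taken as equal. Its filter by control strength was not repeated here. Listed genes with no probe set of their own were not analysed here. The precision is limited by the number of arrays.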

Additional observations from a re-analysis of the deposited data

How the results depend on the processing

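The ITGA2B 206494_s_at difference stayed below 0 in all settings run, at -6.37 to -2.80, but its call was lost with no level filter, by a t-test with unequal variances, with the replicate block and without any of 4 arrays. TUBB1 230690_at and F2R 203989_x_at kept their direction and were called in no setting. Beside 1 member probe set, 4 listed genes and 622 probe sets called, the counts were 0, 2 and 174 with no level filter, 2, 12 and 1191 with a pseudocount of 1, 2, 10 and 1133 with an intensity trend and robust prior, and 0, 0 and 12 by that t-test, which is not the study's own procedure of filtering and testing (4 members and 17 listed genes at an unadjusted p under 0.05). They were 2, 8 and 1014 without parental 1 and resistant 3. Without probe sets of the s_at and x_at classes, 0 members (2 at an unadjusted p under 0.05) and 394 probe sets were called. With no level filter 6 members had an unadjusted p under 0.05. Listed genes called were 7 with 75th percentile scaling, 9 with the level filter at 2 array medians and 8 with a pseudocount of 0.25. Leaving out 1 array gave 0 to 2 members, 1 to 8 listed genes and 204 to 1080 probe sets. The median of the 9 genes was -0.13 without parental 1 and resistant 3, and -1.11 to -0.32 without 1 array. Differences reversed for F2R 1569642_at without parental 2 (-0.12, against 0.93 without parental 1) and, without parental 1 and resistant 3, for ITGB3 204628_s_at (0.17) and CD9 201005_at (0.40). The replicate block left 1 member (ITGA2B 206493_at in place of 206494_s_at), 2 listed genes and 269 probe sets called. Samples of the same number did not deviate together (correlations -0.0253 to -0.0064), and not every sample correlated best with its own number, so the numbers do not pair the samples. The causes of these shifts were not tested.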
